A study of Arabidopsis thaliana with 12 samples.

Results

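AGL103, LAS and TCP15 are 3 Arabidopsis genes for transcription factors of 3 different families, grouped here as regulators of meristems and flowers. They were picked by name, each from the single probe that the platform annotation pairs with that gene and no other, and they are 3 of the 691 loci that have a probe of their own among 3439 probes. The pick was made with the difference between proline and water already known, so every proline-minus-water value of these 3 genes below is a description and carries no test. Transcripts of AGL103 and LAS were dimmer after proline and those of TCP15 brighter, and the levels of the groups overlapped for all 3.

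MADS-box, GRAS and TCP proteins are transcription factors, and some members of these families set where plant meristems form or what their organs become. AGL103 (AT3G18650) is a MADS-box protein, and its own function is little described. LAS (AT1G55580), the LATERAL SUPPRESSOR of the GRAS family, is needed to start axillary meristems in the axils of rosette leaves, from which side shoots grow. TCP15 (AT1G69690), a class I TCP factor, acts with its close relative TCP14 on cell proliferation in growing leaves, internodes and floral organs. None of this background was measured here.

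All 12 samples were from Arabidopsis thaliana, ecotype Wassilevskija, without a mutation or transgene named in the labels (WT), so both groups carry the same genotype. In 6 samples the plants had received 100 mM proline for 48 h, a treatment meant to bring cellular proline to a toxic level, and the other 6, titled as water, are described as having had no treatment. The labels give no tissue, no age and no number of plants per sample, and a level in a whole sample cannot tell fewer cells of a type from less RNA per cell. Whether different samples are different plants is not stated, so the spread between them may be technical.

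The values are relative intensities on a linear scale, with a reference that is not stated. Samples numbered 1 and 2, 3 and 4, and 5 and 6 resemble each other within each group and are called sets 1, 2 and 3. The median intensity above 0 was 0.0325 to 0.0345 on the 4 arrays of set 3 and 0.0678 to 0.0963 on the other 8, and 153 to 235 probes were listed at 0 in water against 352 to 424 in proline. Deposited values are therefore compared within a set, and between sets only after quantile normalization of the log2 values. The 3 genes had a value above 0 in all 12 samples.

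AGL103 was lower after proline in each set after normalization. In water its deposited intensity was 0.257 and 0.181 in set 1, 0.292 and 0.333 in set 2, and 0.134 and 0.112 in set 3. In proline it was 0.200 and 0.184 in set 1, 0.209 and 0.207 in set 2, and 0.0947 and 0.0875 in set 3. Both proline samples lay below both water samples in sets 2 and 3, while in set 1 the groups overlapped because water sample 2 was dimmer than both proline samples. On the arrays of set 1 the median intensity was itself higher in proline, at 0.0957 to 0.0963 against 0.0759 to 0.0812, and divided by that median AGL103 was 3.39 and 2.22 in water and 2.08 and 1.92 in proline. The mean proline intensity over the mean water intensity was 0.879 in set 1, 0.665 in set 2 and 0.740 in set 3.

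LAS was lower after proline in sets 2 and 3, and not in set 1 on the deposited scale. In water its deposited intensity was 0.0865 and 0.101 in set 1, 0.149 and 0.170 in set 2, and 0.0676 and 0.0648 in set 3. In proline it was 0.134 and 0.0642 in set 1, 0.0705 and 0.0332 in set 2, and 0.0423 and 0.0354 in set 3. Proline sample 1 was brighter than both water samples of its set, whereas its partner, proline sample 2, was dimmer than both. In sets 2 and 3 the groups did not overlap. The ratio of mean proline to mean water intensity was 1.06 in set 1, 0.325 in set 2 and 0.587 in set 3.

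TCP15 was higher after proline in each set. In water its deposited intensity was 0.0461 and 0.0583 in set 1, 0.0415 and 0.0460 in set 2, and 0.0322 and 0.0232 in set 3. In proline it was 0.0842 and 0.105 in set 1, 0.0646 and 0.0640 in set 2, and 0.0329 and 0.0389 in set 3. The groups did not overlap within any set on this scale, although in set 3 the lower proline sample was only 1.02 times the higher water sample. How many of all features separate 2 samples from 2 in this way was not counted. Nothing is therefore read from the within-set separation of any of the 3 genes. The ratio of mean proline to mean water intensity was 1.81 in set 1, 1.47 in set 2 and 1.30 in set 3.

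**Figure D1:**
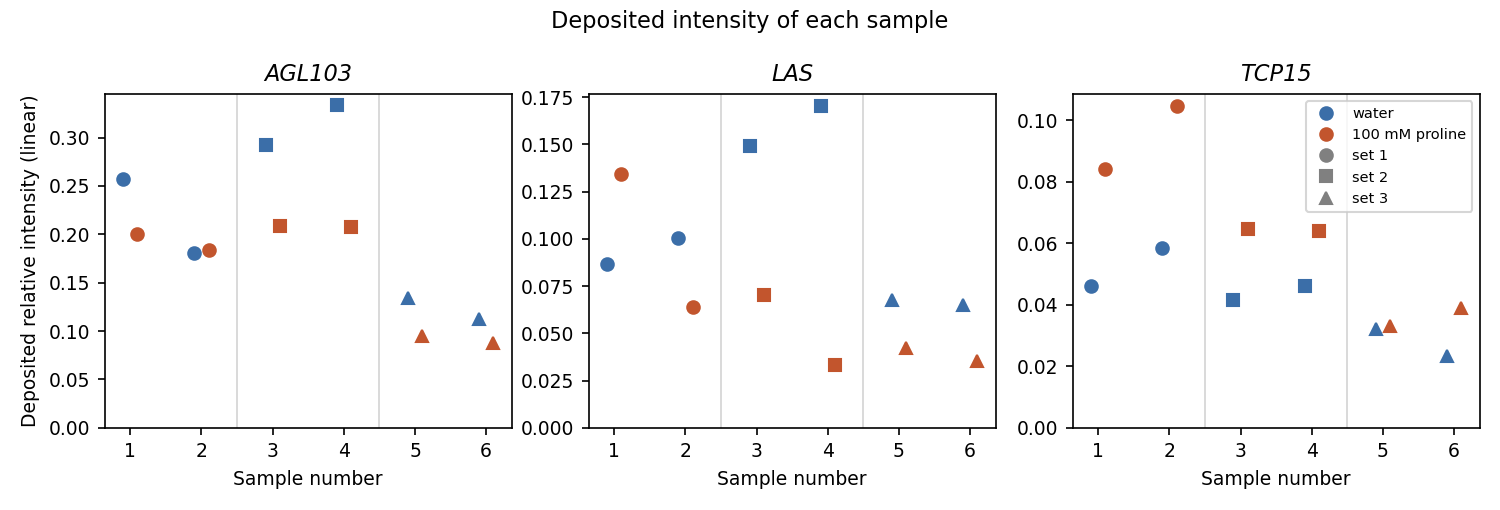
Deposited relative intensity (linear axis from 0) of AGL103, LAS and TCP15 against sample number, with water in blue, proline in orange and the 3 sets as different symbols. Proline points of AGL103 and LAS lie below the water points of the same set in sets 2 and 3, proline sample 1 of LAS lies above its set's water samples at 0.134, and proline points of TCP15 lie above the water points in every set.

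After quantile normalization the mean log2 level of AGL103 was -2.20 ± 0.32 (SD, n = 6) in water and -2.80 ± 0.18 (SD, n = 6) in proline, a difference of -0.60 ± 0.20 (SE) or 1.52-fold. That of LAS was -3.28 ± 0.41 (SD, n = 6) and -4.18 ± 0.57 (SD, n = 6), a difference of -0.90 ± 0.29 (SE) or 1.86-fold. That of TCP15 was -4.68 ± 0.35 (SD, n = 6) and -4.09 ± 0.15 (SD, n = 6), a difference of 0.58 ± 0.20 (SE) or 1.50-fold in the other direction. The SEs here and below are those of limma, which draws on the spread of all tested features. They take the 12 samples as independent and do not follow from the SDs alone.

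Each of these differences was larger than the pooled spread between samples of a group. That spread was 0.26 for AGL103, 0.50 for LAS and 0.27 for TCP15 on the log2 scale. Because the genes were picked on this contrast, nothing is read from differences larger than their spread. The median difference over all 3045 tested features was -0.16, not 0, and it moved to -0.02 when zeros were kept with an offset. Relative to the median of the same scaling, the difference was -0.44 for AGL103, -0.74 for LAS and 0.74 for TCP15, so that TCP15 stood as far above the middle of the array as LAS stood below it. Over the other 4 scalings tried it was -0.45 to -0.29 for AGL103, -0.73 to -0.64 for LAS and 0.62 to 0.83 for TCP15, with the same sign in each.

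For all 3 genes the normalized levels of the groups overlapped. In AGL103 the overlap came from water sample 2 alone, at -2.63, since the other 5 water samples lay above the highest proline sample at -2.57. In TCP15 it came from water sample 5 alone, at -4.09, with the other 5 water samples below the lowest proline sample at -4.27. In LAS the 2 water samples of set 1, at -3.85 and -3.68, lay among the proline samples, which reached from -5.04 to -3.51. Over the whole table the groups did not overlap for 5.55% of tested features with proline lower and for 3.38% with proline higher.

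**Figure D2:**
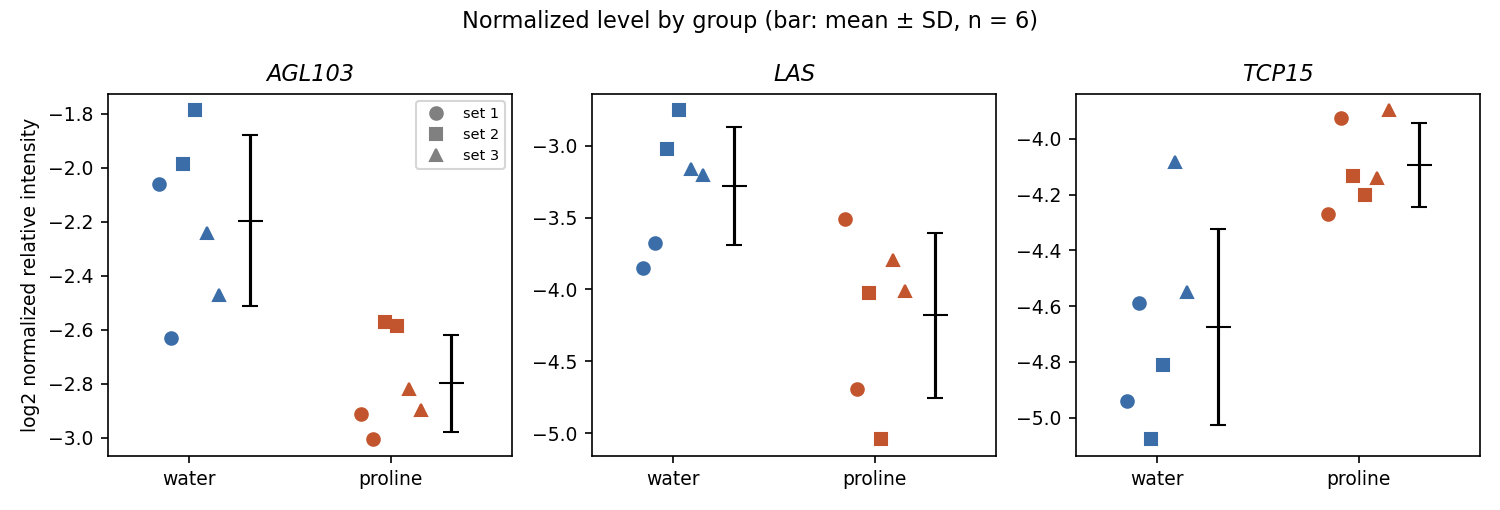
Normalized log2 relative intensity of the 3 genes by group, with points for the samples (symbols give the set) and a bar for the mean ± SD of 6 samples. AGL103 is at -2.20 in water and -2.80 in proline, LAS at -3.28 and -4.18, and TCP15 at -4.68 and -4.09, and 1 or 2 water samples of each gene lie within the range of the proline samples.

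In limma over all 3045 features none of the 3 genes passed an adjusted p of 0.05, against 13.2% of features called in either direction, 7.65% with proline lower and 5.52% with proline higher. Because the genes were picked on this contrast, nothing is read from that count. Of these calls, made with 12 samples taken as independent and quantile normalization, 41.9% were higher with proline, and the share depended on the scaling: centring each array on its median gave 62.6%, cyclic loess 54.1%, keeping zeros 56.7% and leaving the arrays unscaled 85.0%. With the set as a random block 2.69% of features were called.

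The size of the difference varied between the sets, most of all for LAS. The normalized difference of AGL103 was -0.61 in set 1, -0.69 in set 2 and -0.50 in set 3. That of LAS was -0.34, -1.64 and -0.72 in the same order, which is 1.26-fold, 3.12-fold and 1.65-fold, and that of TCP15 was 0.67, 0.78 and 0.30. The median difference of all tested features was -0.05, -0.30 and -0.14 in these sets, so set 2 had the largest shift there too. AGL103 and LAS were lower in all 3 sets, as were 27.7% of tested features, and TCP15 was higher in all 3, as were 16.9%.

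Without set 2 the difference of LAS was -0.53, and without set 1 it was -1.26, compared with -0.90 over all samples. Leaving out a set moved AGL103 only between -0.64 and -0.56 and TCP15 between 0.48 and 0.69. With arrays centred on their median the difference of LAS in set 1 was -0.30, and with no normalization between arrays it was -0.007, while AGL103 stood at -0.46 and -0.17 in that set. TCP15 was above 0 in each set under these scalings as well.

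**Figure D3:**
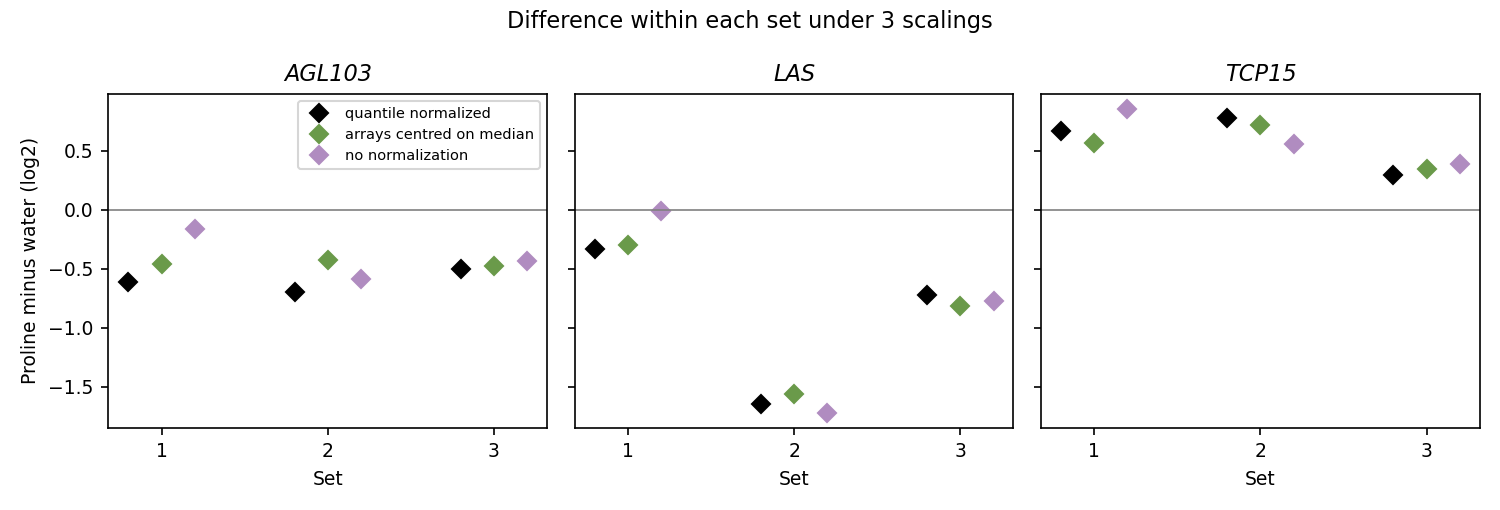
Difference between proline and water (log2) within each set for the 3 genes, with quantile normalization (black), arrays centred on their median (green) and no normalization (purple). LAS spreads from -0.34 in set 1 to -1.64 in set 2 after quantile normalization, while AGL103 stays between -0.69 and -0.50 and TCP15 between 0.30 and 0.78.

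Samples of the same number in the 2 groups gave the same picture pair by pair. Normalized AGL103 was lower with proline in 6 of 6 pairs, from -0.85 to -0.37 on the log2 scale, a pattern shown by 14.4% of tested features. LAS was lower in 5 of 6 pairs, from -2.29 in pair 4 to -0.64 in pair 5, and higher in pair 1 by 0.34, and 27.7% of tested features were lower in at least 5 pairs. TCP15 was higher in 5 of 6 pairs, by 0.61 to 0.94, and pair 5 had a difference of -0.06, while 17.0% of tested features were higher in at least 5 pairs. On the deposited scale TCP15 was higher in all 6 pairs, with ratios of 1.02 to 1.83, and AGL103 lower in 5 of 6, the exception being pair 2 with a ratio of 1.02.

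The levels by set and group can be put in order for each gene on the normalized scale. For AGL103 the order from the top was water in set 2 (-1.89), water in set 1 (-2.35) and water in set 3 (-2.36), then proline in set 2 (-2.58), set 3 (-2.86) and set 1 (-2.96). Water in sets 1 and 3 were neighbours whose samples overlapped, and the other neighbours in this order did not overlap. For LAS the top was again water in set 2 (-2.89), followed by water in set 3 (-3.18) and set 1 (-3.76), and the last 4 of the 6, from water in set 1 down to proline in set 2 (-4.53), each overlapped the next.

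For TCP15 the 3 proline sets came first, at -4.02 in set 3, -4.10 in set 1 and -4.17 in set 2, and they overlapped each other as well as water in set 3 (-4.32). Water in set 1 (-4.76) and in set 2 (-4.94) lay below, separate from water in set 3 and overlapping each other. The water level of TCP15 thus differed more between sets than its proline level did. Set 2 water samples were the brightest for AGL103 and LAS and the dimmest, on average, for TCP15.

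Within the groups AGL103 and TCP15 varied less than most features, and LAS varied more than they did. Their pooled within-group SD of 0.26 and 0.27 was higher than that of only 5.12% and 6.34% of tested features, whose median was 0.62, while the 0.50 of LAS exceeded 34.9% of them. In proline alone the SD of TCP15, 0.15, exceeded that of 3.05% of features, and that of AGL103, 0.18, exceeded 5.19%. In water their SDs were less unusual, exceeding those of 20.1% and 15.6% of features. The genes were picked on the contrast between the groups, so these shares may partly reflect the pick, and the features compared were of any brightness. In size the differences were ordinary: 54.1% of features had a smaller absolute difference than AGL103, 73.0% a smaller one than LAS and 52.5% a smaller one than TCP15.

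Partners within a set differed most for LAS in proline. The gap between proline samples 1 and 2 was 1.18 on the log2 scale and that between samples 3 and 4 was 1.02, wider than the gaps of 81.1% and 82.0% of tested features on the same arrays, whose medians were 0.40 and 0.34. In set 3 the LAS partners in proline were 0.21 apart and in water 0.05. For AGL103 the widest gap was 0.57, between water samples 1 and 2, and in proline its partners were 0.02 to 0.09 apart. The TCP15 partners were 0.07 to 0.46 apart.

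A ratio of 2 genes read on the same array does not depend on the overall level of that array. The deposited intensity of TCP15 over that of AGL103 was 0.138 to 0.323 in water, with a median of 0.193, and 0.309 to 0.568 in proline, with a median of 0.384. It was higher with proline in 6 of 6 same-numbered pairs, by 2.03-fold in set 1, 2.21-fold in set 2 and 1.77-fold in set 3, and only water sample 2 reached into the proline range. These ratios were taken without any normalization between arrays. TCP15 and AGL103 were picked on this contrast with differences of opposite sign, so nothing is read from their moving apart.

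TCP15 over LAS lay between 0.271 and 0.579 in the water samples and between 0.627 and 1.92 in the proline samples, with no overlap between the groups. Among the 99235 pairs of the 446 loci with a value in all 12 samples, 9.30% had ratios that did not overlap, but TCP15 and LAS were picked on this contrast with differences of opposite sign, so nothing is read from their separation. The change of this ratio was uneven, at 1.82-fold in set 1, 4.84-fold in set 2 and 2.24-fold in set 3. LAS over AGL103, the 2 genes that were lower with proline, lay between 0.337 and 0.576 in the water samples and between 0.160 and 0.670 in the proline samples, and both extremes of the proline group came from LAS in proline samples 4 and 1. The level of a ratio also carries the properties of both probes, so levels of different ratios are not compared.

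**Figure D4:**
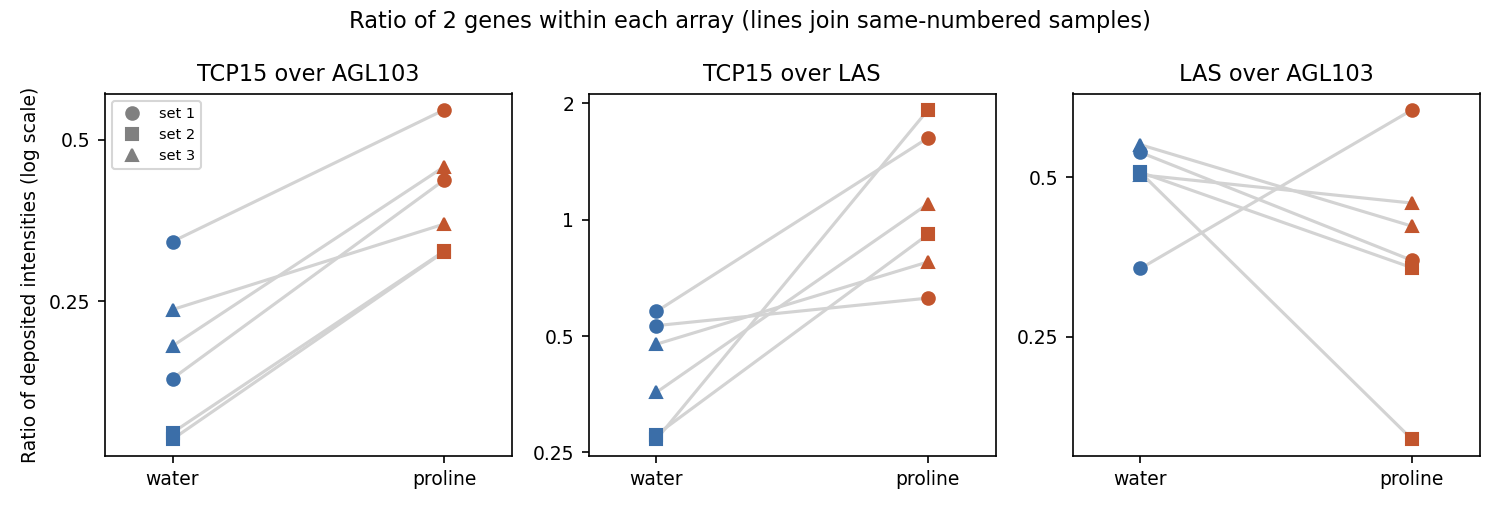
Ratio of the deposited intensities of 2 genes on the same array (log axis) in water and proline, with lines joining samples of the same number and symbols for the sets. TCP15 over AGL103 and TCP15 over LAS are higher with proline along all 6 lines, and LAS over AGL103 is lower along 5 of 6.

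In water the probe of AGL103 was the brightest of the 3. By mean normalized level it ranked 587 of 3045 tested features, brighter than 80.7% of them, LAS ranked 1040 (65.8%) and TCP15 ranked 2024 (33.5%). Among the 608 tested loci with a probe of their own the ranks were 100, 181 and 378. Brightness depends on the probe as well as on the transcript, so these ranks place probes and do not order the amounts of the 3 messenger RNAs. In single water samples AGL103 lay at percentiles of 73.9 to 83.6, LAS at 51.6 to 71.8 and TCP15 at 23.1 to 46.1.

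In proline AGL103 ranked 793, LAS 1498 and TCP15 1450, so that LAS and TCP15 met near the middle of the array. The percentiles in single proline samples were 68.7 to 75.4 for AGL103, 26.1 to 59.2 for LAS and 42.4 to 51.6 for TCP15. The lowest, 26.1, was LAS in proline sample 4, where the same probe in water sample 4 stood at 71.8.

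**Figure D5:**
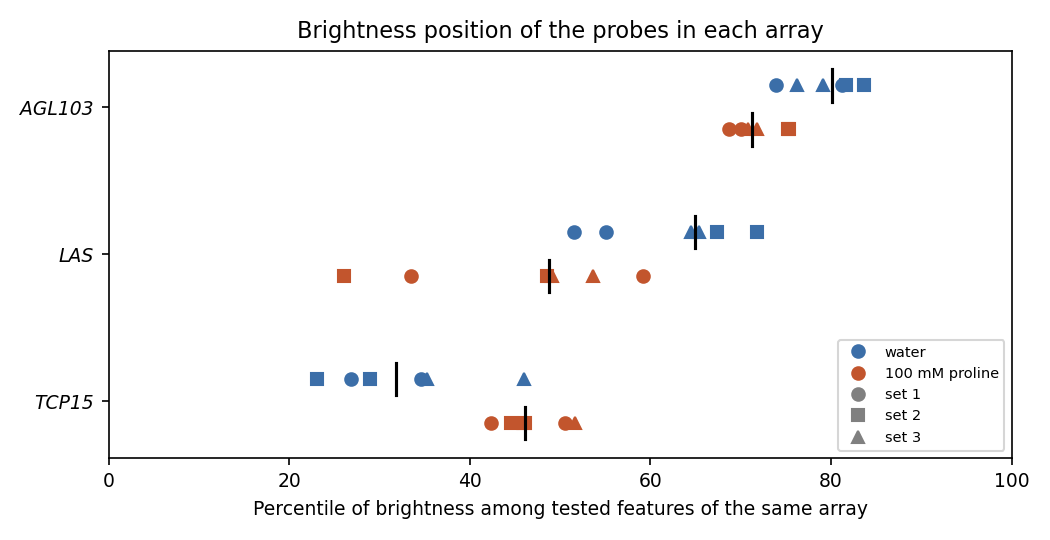
Position of each probe among the tested features of the same array (percentile of brightness, 0 to 100) in water (blue) and proline (orange), with symbols for the sets and a black bar at the group's median. AGL103 stays above 68 in all samples, LAS reaches down to 26.1 in proline, and TCP15 gathers between 42.4 and 51.6 in proline.

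The loci next to the 3 in mean water brightness had differences of either sign with proline. AT1G74070 and AT1G32160, just above and below AGL103, had log2 differences of 0.22 ± 0.20 (SE, adjusted p = 0.456 in limma) and -0.03 ± 0.21 (0.944). AT2G13690, just above LAS, had -0.98 ± 0.40 (adjusted p = 0.117), and AT3G25840, just below, 0.83 ± 0.21 (0.0259). AT4G23110 and AT5G43770, on either side of TCP15, had -1.77 ± 0.48 (adjusted p = 0.0353) and -1.36 ± 0.75 (0.247), from 4 and 5 proline samples, since the others were listed at 0. Of these 6 loci AT3G25840, which was higher, and AT4G23110, which was lower, passed the threshold.

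Few other regulators of these kinds had a probe of their own. Of lists of MADS-box, GRAS and TCP genes, meristem genes, flower genes and other transcription factor families, 4 loci besides the 3 were on the array under a single gene name, 3 of them were tested, and none passed in limma over all features. None of the 3 had an unadjusted p under 0.05 in limma. Of all 3045 tested features 939 had such a p and 13.2% passed, so little can be read from 3 loci. AGL54 and AGL26, which carry MADS-box family names, had log2 differences of -0.41 ± 0.51 (SE, adjusted p = 0.618) and -0.17 ± 0.28 (adjusted p = 0.721) in limma. SPL (AT4G27330), also called NOZZLE and needed to form the spore mother cells in anthers and ovules, had 0.39 ± 0.39 (adjusted p = 0.534).

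AGL54 and SPL had set differences of opposite signs, and AGL26 did not. AGL54 was listed at 0 in proline sample 2 and was highest in its partner, proline sample 1, at 0.0949, so its difference was 1.78 in set 1, from 1 proline sample, and -1.19 and -1.13 in sets 2 and 3. SPL was lower in set 1 (-0.80) and higher in sets 2 and 3 (0.85 and 1.11). Without set 1 SPL was called, with a difference of 1.04 and an adjusted p of 0.0439 in limma. In that setting 572 of 3045 tested features were called, so little is read from this 1 call. Over all settings the adjusted p of SPL in limma ran from 0.0439 to 0.986. AGL26 had -0.03, -0.41 and -0.06. IAA31, an auxin-response repressor of the Aux/IAA family, was above 0 in 3 water samples and 1 proline sample and was not tested.

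Markers that could show which organs the samples held were scarce. No root marker and no seed marker of the lists had a probe of its own, and the single flower marker was SPL. All 6 leaf markers were above 0 in all 12 samples. So were 446 of the 691 loci with a probe of their own, so a value above 0 says little about tissue. The leaf gene LHB1B2, a light-harvesting chlorophyll protein, lay at intensities of 7.23 to 12.8 in water and 5.71 to 8.65 in proline. Its log2 difference was -0.68 ± 0.25 (SE, adjusted p = 0.0924 in limma). The photosystem proteins PSAN and PSBY had -0.81 ± 0.32 (adjusted p = 0.105) and -0.51 ± 0.19 (0.0939), and the Calvin cycle enzymes SBPASE and PRK had -1.16 ± 0.44 (0.0939) and -0.56 ± 0.22 (0.101). PSBW of photosystem II had a difference of the other sign, 0.49 ± 0.24 (adjusted p = 0.187). None of these 6 passed, against 13.2% of all tested features. Whether the make-up of the samples had a part in the levels of AGL103, LAS and TCP15 was not tested.

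Over the 12 samples the loci with the pattern most like that of each gene were found by Pearson correlation of the normalized levels among the 446 loci with a value in every sample. The coefficients describe 12 samples that share arrays in sets and the same 2 groups. For AGL103 they were AT2G30320 (r = 0.849), CUTA, a copper-binding chloroplast protein (0.844), and AT2G35450 (0.841), and the most opposed was AT1G24040 (-0.898). CUTA differed between proline and water by -1.32 ± 0.29 (SE) and AT1G24040 by 1.36 ± 0.38.

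For LAS the most alike were AT5G36470 (r = 0.884), AT2G47360 (0.852) and AT2G01400 (0.847), and the most opposed was AT2G37750 (-0.893). The first 3 differed between groups by only -0.47, -0.46 and -0.47 on the log2 scale, less than LAS itself, and with the group means taken out their correlation with LAS was still 0.831, 0.734 and 0.865. Set 2 had the largest difference in each of them, at -1.27, -0.95 and -0.99, as it did in LAS. These loci were picked for a high correlation with LAS, so their correlations and their set differences describe the pick.

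For TCP15 the most alike were FATB (r = 0.882), the plastid thioesterase that releases saturated fatty acids, AT1G72890 (0.877) and AT1G70200 (0.833), and the most opposed was AT2G29870 (-0.836). FATB differed between proline and water by 0.60 ± 0.17 (SE), and by 0.62, 0.77 and 0.42 in sets 1, 2 and 3. With the group means taken out, the correlation with TCP15 was 0.692 for FATB, 0.746 for AT1G72890 and 0.730 for AT1G70200. These loci too were picked for a high correlation, here with TCP15, so the values describe the pick.

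Between the 3 genes themselves the correlation over the 12 samples was 0.622 for AGL103 with LAS, -0.795 for AGL103 with TCP15 and -0.561 for LAS with TCP15. With the group means taken out these became 0.155, -0.489 and -0.058. These coefficients rest on 12 samples that fall into 3 sets per group. They were not set against those of other pairs of loci, so only their values are given.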

How the data were processed

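The authors deposited 1 table of processed array values, relative intensity on a linear scale from 0 upward, as read from the values. The scanner, background correction, normalization and reference were not given in the sources used here. Probe names came from the platform annotation, updated through gene identifiers to the TAIR10.1 gene table, and no coordinates are given because no build is named.

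Values of 0 were taken as missing, the others log2-transformed and quantile normalized, and probes of a locus averaged. Features with at least 4 values per group were tested with limma 3.58.1 (R 4.3.3, statmod 1.5.0) over 6 and 6 samples, with Benjamini-Hochberg adjustment and a threshold of 0.05, after a test on simulated data. Figures used matplotlib 3.10.9. The number of arrays limits the precision.

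The members and lists were chosen with earlier results of these data known. Named besides the members are every locus of the regulator lists, the 3 most alike and the most opposed locus of each member, and its neighbours in water brightness. The leaf markers were named after their values were seen. Samples of the same number deviated together (correlation of deviations from the group means 0.134 to 0.256 over 2337 features, in all 6 pairs), so the numbers were taken to pair the samples. Alternatives were other scalings, zeros kept, filters, blocks, set means, and leaving out samples or sets.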

Additional observations from a re-analysis of the deposited data

How the results depend on the processing

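The differences of AGL103, LAS and TCP15 kept their sign in all 25 alternatives and moved by less than the spread between samples. They ranged over -0.70 to -0.39, -1.26 to -0.53 and 0.48 to 0.73 on the log2 scale. The filters, blocks and set means could not move them, because the 3 genes had values in all 12 samples of a balanced design. The genes were also picked on this contrast, so nothing is read from the kept sign. With 1 sample left out the ranges were -0.70 to -0.52, -1.04 to -0.72 and 0.51 to 0.70. With the replicate number as a block the differences were the same as without it (-0.60, -0.90 and 0.58), 436 features were called instead of 401, and the pairing changed no call among AGL26, AGL54 and SPL. The count of 401 called features became 20 with no normalization between arrays, 783 with the set as a fixed block, 82 with the set as a random block (estimated correlation 0.593), 28 without set 2, 184 without set 3, and 0 with set means, where 472 features had an unadjusted p under 0.05 in limma. Leaving out 1 sample gave 244 to 477 calls, with 244 and 251 without water samples 3 and 4. The other regulators had 1 call, SPL, without set 1, where 572 of 3045 features were called. They had 0 calls in the other settings, including each sample left out. The water percentile was 54.9 for LAS in set 1 alone and 41.8 for TCP15 in set 3 alone; the other alternatives stayed within the spread between samples. The cause of these shifts was not tested, and the table holds no background from which to judge dim values.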

Other observations

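In 48 groups of normalized values, those of the named loci in water and in proline, no sample stood apart from the others of its group by Dixon's criterion, proline samples 1 and 4 of LAS included.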
